A study of Mus musculus with 10 samples.

Results

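A set of 10 amino acid transporter genes was followed in the livers of mice in which the microRNA miR-122 had been blocked with an antisense oligonucleotide (ASO). The set was chosen because Slc1a4 and Slc38a9 were higher in ASO livers, and 8 other amino acid transporter genes complete it. These genes had 12 probes that the array annotation assigns to a single gene. Of these, 11 probes of 9 genes gave values, and the 9 genes are among 18012 genes tested on the array. The only Slc38a4 probe was empty on all 10 arrays, so this gene, a liver carrier of small neutral amino acids, has no value here. Because Slc1a4 and Slc38a9 were chosen by their ASO minus saline differences, these are given as a description, without a test.

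RNA from the liver of each of 10 mice was hybridised to its own 1-colour CodeLink array. The 5 ASO mice, described as male C57Bl/6, received 50 mg/kg of miR-122 ASO intraperitoneally 2 times a week for 4 weeks. The 5 controls were injected with saline as often, and the labels give neither their sex nor their strain. Mice were killed 2 days after the final injection, and their ages are not given. The ASO carried 2′-O-methoxyethyl groups on a phosphorothioate backbone and the controls received no oligonucleotide, so effects of the chemistry and of miR-122 loss cannot be told apart.

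Amino acid transporters of the solute carrier families move amino acids across the plasma membrane or out of lysosomes. In hepatocytes they supply carbon and nitrogen for glucose, urea and plasma protein synthesis. Some are exchangers that swap one amino acid for another, some use the sodium gradient to concentrate their substrates, and others let substrates pass down their gradient. Slc38a9 stands apart, since it sits on the lysosome and reports lysosomal amino acids, arginine in particular, to the growth kinase complex mTORC1.

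The start regions of Slc1a4 and Slc38a9 are shown because the rise of a probe of each gene chose the set. For Slc38a9 that was probe 119069, and the groups overlapped on its other probe, 159097. The RefSeq promoter table for GRCm38.p6 held 8 windows for 6 of the 10 genes, each from 250 bases before to 50 bases after an annotated start. A pair of motifs was searched on both strands, and matches are in capitals. The first was TGATGNAA, the composite site that C/EBP and ATF factors bind in genes of the amino acid response, and the second was CACGTG, the core of the site that TFEB binds in lysosomal genes. The Slc1a4 window lies at chr11:20332664-20332963 on the minus strand, and the Slc38a9 window at chr13:112660516-112660815 on the plus strand.
Slc1a4: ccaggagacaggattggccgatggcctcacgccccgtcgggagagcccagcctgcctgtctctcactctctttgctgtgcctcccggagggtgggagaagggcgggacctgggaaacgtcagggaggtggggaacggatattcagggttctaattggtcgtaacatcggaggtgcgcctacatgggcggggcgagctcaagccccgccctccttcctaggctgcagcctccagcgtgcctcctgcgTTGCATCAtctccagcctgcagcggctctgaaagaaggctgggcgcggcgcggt
Slc38a9: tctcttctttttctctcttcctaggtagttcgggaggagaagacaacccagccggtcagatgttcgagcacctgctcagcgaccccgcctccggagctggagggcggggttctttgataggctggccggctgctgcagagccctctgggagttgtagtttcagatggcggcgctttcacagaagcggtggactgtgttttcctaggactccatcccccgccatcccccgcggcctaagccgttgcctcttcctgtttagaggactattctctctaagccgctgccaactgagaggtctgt

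The Slc1a4 window held TTGCATCA, the first motif read on the opposite strand, with 4 bases before the start and 4 bases from the start on. Among the 8 member windows it was the 1 window with this motif, which 3.97% of all 32851 windows held. The second motif occurred in 1 member window, that of Slc43a1, and in 7.15% of all windows. Neither motif is in the Slc38a9 window. The motifs were chosen with these sequences in view, so nothing is read from a match beside the share of all windows. Whether any factor binds these letters in these livers was not measured.

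Slc1a4 encodes ASCT1, a sodium-dependent exchanger of alanine, serine, cysteine and threonine. Its intensity was 4.40, 4.82, 4.42, 4.63 and 4.60 in the saline mice and 8.28, 13.7, 14.7, 15.1 and 9.29 in the ASO mice. The lowest ASO mouse lay well above the highest saline mouse. ASO mice 1 and 5 were 1.81-fold and 2.03-fold above the saline mean, and ASO mice 2, 3 and 4 were 3.0-fold to 3.29-fold above it. On the log2 scale the level was 2.19 ± 0.05 in saline and 3.57 ± 0.40 in ASO livers (SD, n = 5 per group), a log2 difference of 1.37 ± 0.20 (SE). The saline mice were close together, and most of the spread of this probe was among the ASO mice.

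Slc38a9 had 2 probes, and they differed. On probe 119069 the saline mice stood at intensities of 2.19, 1.93, 2.29, 2.13 and 1.75 and the ASO mice at 5.37, 4.53, 4.48, 5.92 and 3.49. All 5 ASO mice were above all saline mice, by 1.70-fold to 2.89-fold of the saline mean. The log2 level was 1.03 ± 0.16 in saline and 2.23 ± 0.29 in ASO livers (SD, n = 5 per group), giving a log2 difference of 1.19 ± 0.18 (SE).

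On the second Slc38a9 probe, 159097, the saline intensities were 6.04, 5.58, 5.42, 4.09 and 5.41 and the ASO intensities 9.55, 3.28, 5.25, 10.1 and 6.27. Here the groups overlapped, with 3 ASO mice above all saline mice and 1 below all of them. The log2 difference was 0.27 ± 0.29 (SE). ASO mice 1 and 4 were the highest of their group on both probes. ASO mouse 2, the lowest of all mice on the second probe, was in the middle of its group on the first. The annotation ties both probes to sequence records other than RefSeq messenger RNAs, and the part of the transcript each reads is not given in the sources used here.

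**Figure D1:**
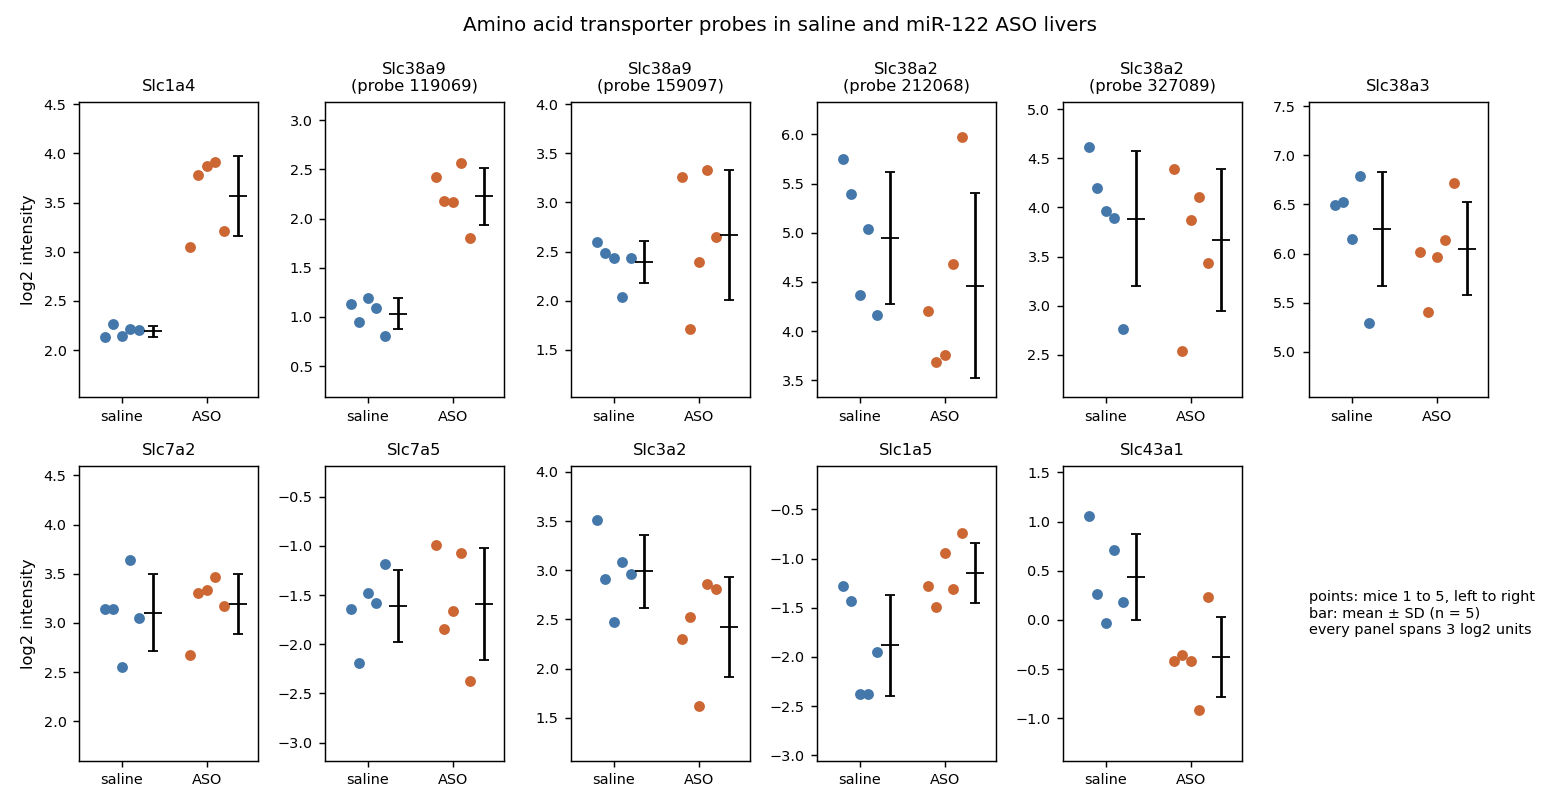
The log2 intensity of each of the 11 measured probes is plotted by group, with a point for each of the 5 mice and a bar for mean ± SD, and every panel spans the same number of log2 units. The groups are apart for Slc1a4 (saline 2.19 ± 0.05, ASO 3.57 ± 0.40) and for Slc38a9 probe 119069, and overlap on the other 9 probes.

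In limma's fit over all 36088 probes, 23 probes (0.0637%) had an adjusted p under 0.05 in either direction, and groups without overlap and higher in ASO occurred in 0.939% of all probes. That these 2 probes are among them is fixed by how the genes were chosen, and nothing is read from it. The log2 difference lay between 1.29 and 1.50 for Slc1a4, and between 1.11 and 1.30 for Slc38a9 probe 119069, when each array was left out in turn.

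Slc1a5 encodes ASCT2, the close relative of ASCT1 that also carries glutamine. It was dim in these livers, with intensities of 0.411, 0.371, 0.129, 0.102 and 0.259 in saline and 0.413, 0.355, 0.521, 0.404 and 0.600 in ASO mice. Saline mice 3 and 4 lay below the floor of 0.192 that was applied before log2, and 3 of 5 ASO mice were above all saline mice. The log2 difference was 0.73 ± 0.26 (SE, limma adjusted p = 0.328), so this gene was not called. Its size depended on how dim values were treated, at 0.22 with a pseudocount of 1 and 1.03 with no floor.

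Among the members other than Slc1a4 and Slc38a9, 8 genes were listed and 7 measured, with 8 probes. None of the 8 probes passed the test in limma (adjusted p from 0.283 to 0.985, against 0.0637% of all probes called), 3 had a higher and 5 a lower mean in ASO livers, and the groups overlapped on all 8. At an unadjusted p under 0.05 there were 2 of them, Slc1a5 higher and Slc43a1 lower, against 11.2% of all probes. Their median log2 difference was -0.21, beside -0.0029 over all probes and -0.08 over probes above the median level.

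**Figure D2:**
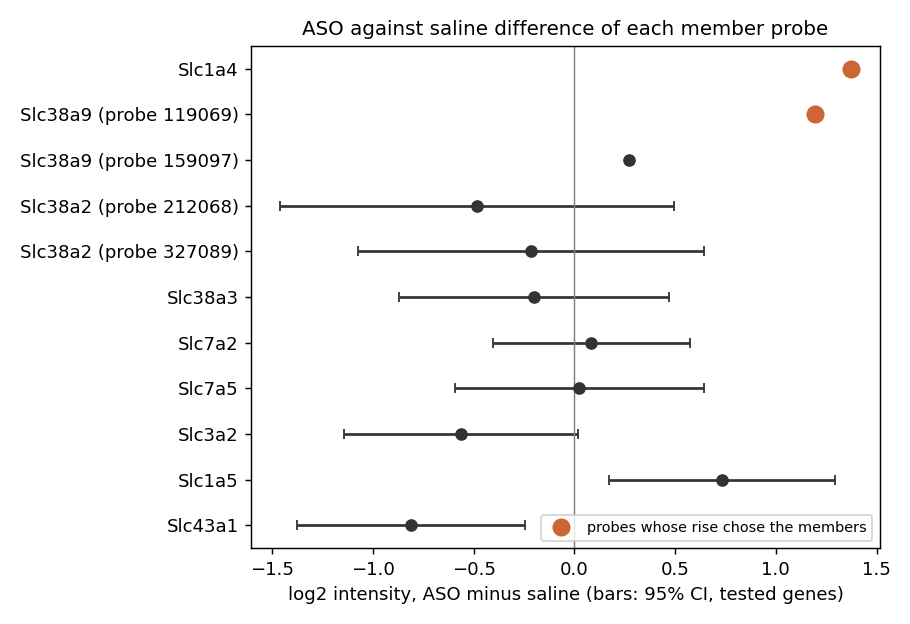
The log2 intensity difference, ASO minus saline, is plotted for each measured probe, with the 2 probes whose rise chose the members in orange. Genes other than Slc1a4 and Slc38a9 carry a 95% confidence interval from limma, which lies above 0 for Slc1a5 and below 0 for Slc43a1, and neither passed after adjustment over all probes.

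The Slc38 members of the plasma membrane couple uptake to sodium. Slc38a2 encodes SNAT2, a carrier of small neutral amino acids that cells are known to induce when amino acids are short. On its probe 212068 the saline intensities were 54.0, 42.1, 20.6, 32.9 and 18.0, and the ASO intensities were 18.4, 12.9, 13.5, 25.7 and 63.1. ASO mouse 5 was the highest of all 10 mice and ASO mice 2 and 3 the lowest. The log2 difference was -0.48 ± 0.45 (SE, limma adjusted p = 0.711), with an interval of -1.46 to 0.49, moving to -0.86 when ASO replicate 5 was left out and to -0.28 when saline replicate 1 was.

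The second Slc38a2 probe, 327089, gave intensities of 24.4, 18.3, 15.6, 14.9 and 6.77 in saline and 21.0, 5.79, 14.7, 17.2 and 10.8 in ASO mice. ASO mouse 5, the highest mouse on the first probe, was the second lowest of its group here. The log2 difference of -0.22 ± 0.39 (SE, limma adjusted p = 0.870) turned to 0.06 without ASO replicate 2. Neither Slc38a2 probe separated the groups.

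Slc38a3 encodes SNAT3, a carrier of glutamine, histidine and asparagine that is prominent in liver. Its intensities were 89.8, 92.3, 70.9, 110.7 and 39.3 in saline mice and 64.9, 42.3, 62.4, 70.7 and 105.6 in ASO mice. The ranges of the groups lay nearly on top of each other, and the log2 difference was -0.20 ± 0.31 (SE, limma adjusted p = 0.842, interval -0.87 to 0.47), or -0.03 under quantile normalization.

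Saline mouse 5 was the lowest saline mouse and ASO mouse 2 the lowest ASO mouse on both Slc38a2 probes and on Slc38a3. The spread between mice of a group was wide for Slc38a2, with a pooled within-group SD of 0.82 and 0.71 on the log2 scale on its 2 probes, above that of 97.0% and 93.1% of all probes. For Slc38a3 the within-group SD was 0.53, and the median over all probes was 0.41. On Slc1a4 and on Slc38a9 probe 119069 it was 0.29 and 0.23, and these 2 probes were chosen from this contrast.

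**Figure D3:**
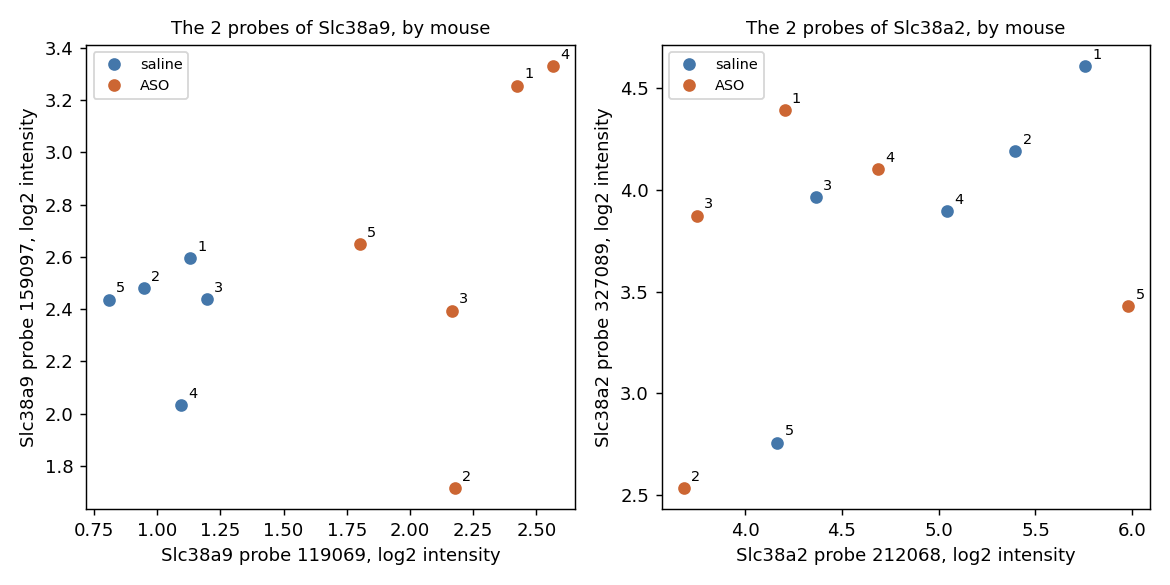
Each point is a mouse, numbered by its replicate, with the log2 intensity of the first probe of a gene on the horizontal axis and that of the second probe on the vertical axis, for Slc38a9 (left) and Slc38a2 (right). On Slc38a9 the ASO mice lie to the right of all saline mice but spread from below to above them vertically, and on Slc38a2 ASO mouse 5 is far to the right without being high.

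Slc7a2 encodes CAT2, a carrier of arginine and other cationic amino acids. Its saline intensities were 8.79, 8.82, 5.86, 12.5 and 8.31, and its ASO intensities 6.38, 9.89, 10.1, 11.04 and 8.999. All ASO mice lay within the saline range. The log2 difference was 0.08 ± 0.22 (SE, limma adjusted p = 0.919), with an interval of -0.41 to 0.58, and it turned to -0.05 without saline replicate 3.

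Slc7a1, the related cationic carrier CAT1, is reported in the literature as a target of miR-122 and is not among the 10 genes. Its log2 level was 1.78 ± 0.20 in saline and 1.88 ± 0.26 in ASO livers (SD, n = 5 per group), a log2 difference of 0.10 ± 0.18 (SE, limma adjusted p = 0.861). It was not called, and the difference was 0.0014 without ASO replicate 4 and 0.24 under quantile normalization.

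Slc7a5 and Slc3a2 encode the light chain LAT1 and the heavy chain CD98 (4F2hc) of a single heterodimeric exchanger for large neutral amino acids such as leucine. Slc7a5 was dim, with intensities of 0.320, 0.219, 0.360, 0.335 and 0.440 in saline and 0.502, 0.279, 0.316, 0.476 and 0.143 in ASO mice. ASO mouse 5 was below the floor. The log2 difference of 0.02 ± 0.28 (SE, limma adjusted p = 0.985) had an interval of -0.60 to 0.65, and its sign turned under quantile normalization, cyclic loess and no floor.

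Slc3a2, whose product also pairs with other light chains, gave intensities of 11.4, 7.53, 5.55, 8.49 and 7.81 in saline and 4.94, 5.76, 3.07, 7.26 and 7.03 in ASO mice. ASO mice 1 and 3 were below all saline mice. The log2 difference was -0.56 ± 0.27 (SE, limma adjusted p = 0.459, interval -1.15 to 0.02), and it was -0.36 without ASO replicate 3. Neither chain had a called difference.

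Slc43a1 encodes LAT3, a facilitative carrier of branched-chain amino acids and phenylalanine. Its intensities were 2.08, 1.20, 0.980, 1.64 and 1.13 in saline and 0.746, 0.781, 0.748, 0.529 and 1.18 in ASO mice. All ASO mice except mouse 5 were below all saline mice. The log2 level was 0.44 ± 0.44 in saline and -0.38 ± 0.41 in ASO livers (SD, n = 5 per group), a log2 difference of -0.81 ± 0.26 (SE). Among the members it had the smallest adjusted p after the 2 probes that chose the set, 0.283 in limma, and was not called. With a pseudocount of 1 the log2 difference was -0.41.

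Amino acid transporter genes outside the 10 had means on both sides of the saline level. Of 46 listed genes, 40 were measured, 17 with a higher and 23 with a lower mean in ASO livers, and none passed limma's test (0.0637% of all probes did). At an unadjusted p under 0.05 there were 2 higher (4.58% of all probes) and 4 lower (6.66% of all probes), and their median log2 difference was -0.05. Only 17 of the 40 were above the median level of all probes, and 7 were at the floor on 5 or more arrays.

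The 3 with the smallest adjusted p were Slc3a1, Slc16a10 and Slc7a8. Slc3a1, the heavy chain of the cystine and dibasic amino acid carrier, had a log2 difference of -1.26 ± 0.31 (SE, limma adjusted p = 0.194). Slc16a10, a carrier of aromatic amino acids, had -0.99 ± 0.30 (adjusted p = 0.273), and for both genes 4 of 5 ASO mice were below all saline mice. Slc7a8, the LAT2 light chain that also binds CD98, had 0.63 ± 0.20 (adjusted p = 0.280) at a level near the floor, and 0.16 with a pseudocount.

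Slc38a9 acts through the Rag GTPases, Ragulator and mTORC1, so the genes of this machinery were read beside it. Of 40 listed genes 36 were measured, 16 higher and 20 lower, with a median log2 difference of -0.03, and none passed limma's test (0.0637% of all probes did). At an unadjusted p under 0.05 there were 1 higher (4.58% of all probes) and 2 lower (6.66% of all probes). These were Tbc1d7, a subunit of the TSC complex that restrains mTORC1, at 0.72 ± 0.24 (SE, limma adjusted p = 0.301), Akt1s1, the inhibitory mTORC1 subunit PRAS40, at -1.19 ± 0.40 (adjusted p = 0.299), and Depdc5, a subunit of the GATOR1 complex, at -0.80 ± 0.36 (adjusted p = 0.440). Akt1s1 lay at the floor on 2 arrays and was -0.37 with a pseudocount. Depdc5 was -0.52 without ASO replicate 3.

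Genes of the amino acid response were read as well. This list holds Atf4 itself, the kinases Eif2ak4 and Eif2ak3 that act upstream of it, and genes that ATF4 is known to induce when amino acids are short. It shares the measured genes Eif4ebp1 and Sesn2 with the mTORC1 list and Slc7a11 with the list of other transporters. Of 24 listed genes 23 were measured, 12 higher and 11 lower, with a median log2 difference of 0.06 (0.18 under quantile normalization). None passed limma's test (0.0637% of all probes did), and at an unadjusted p under 0.05 there were 0 higher (4.58% of all probes) and 1 lower (6.66% of all probes). That gene was Psat1, an enzyme of serine synthesis, at -1.47 ± 0.42 (SE, limma adjusted p = 0.246). Atf3 had 0.40 ± 0.22 (adjusted p = 0.521) and Chac1 0.37 ± 0.21 (adjusted p = 0.541), with means below the median level of all probes, and 0.17 and 0.15 with a pseudocount.

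The last list holds enzymes that make or break down amino acids these carriers move. It shares the measured genes Psat1, Psph, Phgdh, Shmt2 and Asns with the amino acid response list, so the counts of the lists overlap. Of 17 listed genes 13 were measured, 3 higher and 10 lower, with a median log2 difference of -0.38, and none passed limma's test (0.0637% of all probes did). Of these 13 genes 12 were above the median level of all probes, where 40.1% of probes had a higher mean in ASO livers. At an unadjusted p under 0.05 there were 0 higher (4.58% of all probes) and 3 lower (6.66% of all probes). The median was -0.20 under quantile normalization and -0.10, -0.23 and -0.23 without ASO replicates 1, 4 and 5.

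Got1, the cytosolic aspartate aminotransferase, had a log2 level of 3.94 ± 0.55 in saline and 2.35 ± 0.75 in ASO livers (SD, n = 5 per group). Its log2 difference was -1.59 ± 0.37 (SE, limma adjusted p = 0.180), and it was the 1 gene of this list whose groups did not overlap, which 1.43% of all probes showed in this direction. Got2, the mitochondrial form, had -0.51 ± 0.18 (adjusted p = 0.322), and Psat1, given above, was the other of the 3 genes with the smallest adjusted p.

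**Figure D4:**
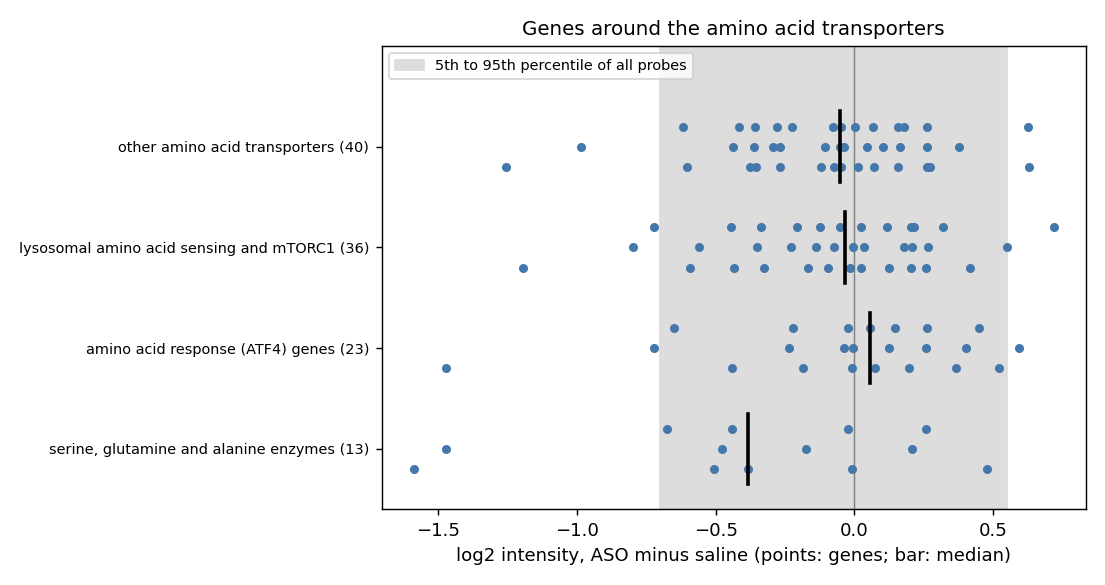
Each point is a gene, by its brightest probe, placed by its log2 intensity difference, ASO minus saline, in the 4 gene lists around the transporters, with the number of measured genes in brackets. The black bar is the list's median and the grey band the 5th to 95th percentile of all probes (-0.70 to 0.55), and the medians lie at -0.05, -0.03, 0.06 and -0.38 from top to bottom.

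The probes whose values over the 10 mice were most like those of Slc1a4 and Slc38a9 were sought among 11437 named single-gene probes above the median level. Likeness was the root mean square difference of log2 values after each probe's mean over the 10 arrays was removed, so that a small number means a like pattern. The nearest to Slc1a4 were Lad1, a protein of epithelial anchoring filaments (0.22), Pde6c, a phosphodiesterase of cone cells (0.28), and Zyx, a focal adhesion protein (0.29). The nearest to Slc38a9 probe 119069 were Arl2, a small GTPase that acts in tubulin folding (0.26), Lad1 (0.26) and Zyx (0.29). Slc1a4 and this Slc38a9 probe differed by 0.31 from each other, and 4 of the 11437 probes were nearer to Slc1a4 and 9 nearer to Slc38a9. Pde6c and Arl2 were weak in saline mice, at intensities of 0.75 to 1.25 and 0.82 to 1.09, close to the array medians of 1.03 to 1.05.

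Lad1 had intensities of 5.02, 4.82, 5.13, 5.24 and 6.39 in saline and 10.2, 15.3, 11.8, 13.7 and 9.31 in ASO mice. Like Slc1a4, it was lowest among the ASO mice in mice 1 and 5. Since the 2 probes were chosen for their difference between the groups, probes with a like difference are bound to be near, and the order of the mice within a group adds only 5 values on each side.

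**Figure D5:**
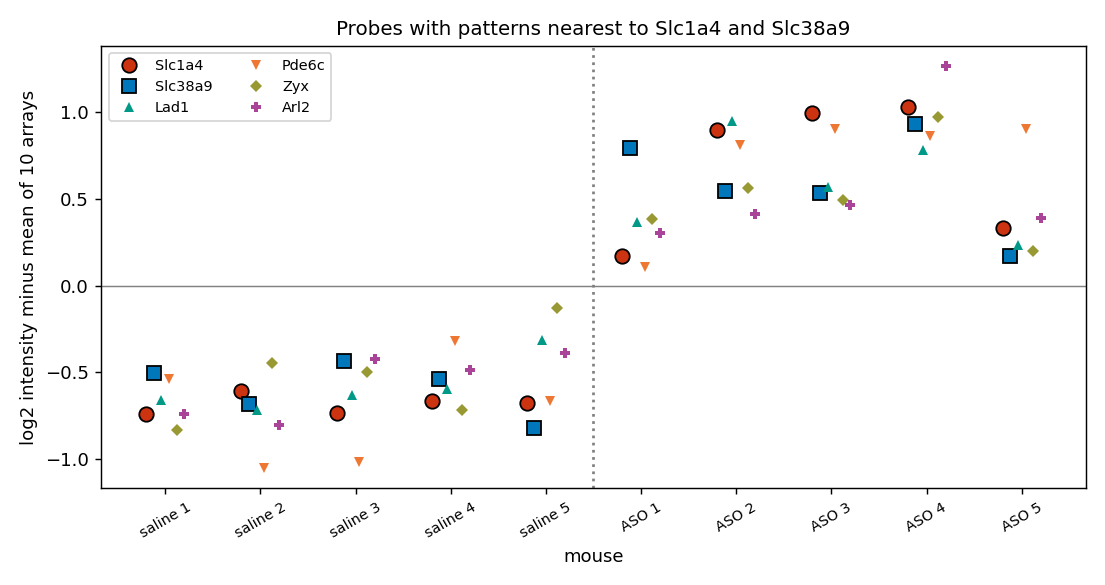
The log2 intensity of each probe after its mean over the 10 arrays was removed is plotted by mouse for Slc1a4 and Slc38a9 probe 119069 (outlined) and the 4 genes nearest to them. All 6 are below 0 in the 5 saline mice and above 0 in the 5 ASO mice, and Slc1a4 and Lad1 are lower in ASO mice 1 and 5 than in ASO mice 2, 3 and 4.

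The tissue carried the marker genes of liver, with all 8 measured hepatocyte markers (of 12 listed) above the median level. The log2 of their summed intensity was 11.31 to 12.51 in saline and 12.28 to 12.72 in ASO mice, so the ranges overlapped. By gene, 4 had higher and 4 lower means, with a median log2 difference of 0.14, and none passed limma's test (0.0637% of all probes did). In bulk liver, fewer cells of a type and less RNA per cell cannot be told apart. The log2 of the summed intensity of the 9 measured Kupffer cell markers was 7.17 to 8.45 in saline and 5.92 to 8.43 in ASO mice. For 7 endothelial markers it was 6.00 to 6.91 and 5.58 to 7.32, and for 8 stellate cell markers 6.92 to 7.49 and 6.74 to 7.46. For 7 lymphocyte markers it was 3.10 to 3.72 in saline and 2.78 to 3.17 in ASO mice, so the ranges met only at their ends. Of these 7 genes 2 had higher and 5 lower means, with a median log2 difference of -0.51 (-0.32 with cyclic loess and -0.25 with a pseudocount), and 3 were lower at an unadjusted p under 0.05, against 6.66% of all probes. None passed limma's adjusted threshold. Among them the log2 difference was -0.57 for the B cell marker Ms4a1, whose groups did not overlap (1.43% of all probes were lower in this way), and -1.27 for Ptprc, a marker of all leukocytes with 4 saline values (-0.25 and -0.50 with a pseudocount). Both are named here because of their values. The 2 with higher means were Nkg7 (0.24) and Cd3e (0.06). Cd3e, a defining T cell marker, was at the floor on 6 of 10 arrays, and Ptprc was there on 2. Only 2 of the 7 lymphocyte markers were above the median level of all probes. The sums of 5 bile duct, 3 red blood cell and 5 pancreas markers overlapped between the groups, and the part of other cells in the transporter differences was not tested. The brightest value of saline mouse 1 was 541.6 against 1198 to 2333 on the other arrays, and the brightest member value on any array was 110.7. Whether this difference of the array reaches values as dim as those of the members was not tested. Saline mouse 1 was above its group mean on 9 of 11 member probes, with a median log2 deviation of 0.24. Saline mouse 4 (0.06) and ASO mouse 4 (0.34) were also above theirs on 9. Without saline mouse 1 the log2 difference was -0.66 for Slc43a1, -0.44 for Slc3a2 and 0.88 for Slc1a5.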

How the data were processed

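The deposited values are 1-colour array intensities on a linear scale, 1 column per mouse, with medians of 1.03 to 1.05 and 74 to 377 values per array at or below 0. The label protocol names the CodeLink assay. How the scanner values were background-subtracted and scaled, and with what software, is not stated in the labels. Of 36227 probes, 139 with fewer than 3 values in a group were left out. Values below the 10th percentile of positive values (0.192) were raised to that value before log2. ASO minus saline was fitted on the remaining 36088 probes with limma 3.58.1 in R 4.3.3 (lmFit, eBayes, no covariates, two-sided). P-values were adjusted over all probes by Benjamini-Hochberg at a threshold of 0.05. The procedure was tested on simulated data with the means and spreads of these probes. Noise was drawn separately for each probe, without shifts shared by an array, so the rates may differ on the real arrays. The procedure recovered 1.49% of 67 changes of 1.5-fold, 16.4% of 67 of 2-fold and 78.8% of 66 of 4-fold. These changes were set in probes above the median level, and 2 unchanged probes were called. A gene that did not pass can therefore still have changed. The number of arrays limits the precision. Levels of different probes were set side by side only to tell dim from bright probes, and amounts of RNA were not compared between genes.

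Only single-gene probes were named, 21615 in all, with symbols looked up by Entrez ID in RefSeq's GRCm38.p6 table (21487 matched, 0 changed). All member probes are shown. In other lists the brightest probe stands for a gene. The genes named from each list are the 3 with the smallest adjusted p and any that passed, with Slc7a1 added, and for the patterns most like Slc1a4 and Slc38a9 the 3 nearest. The members, lists and rules were chosen with earlier results of these data known, and the 2 promoter motifs were chosen with the sequences in view. Alternatives were quantile and cyclic loess normalization, no floor, a pseudocount of 1, a filter that kept probes above the median level, array weights, eBayes with trend and robust, averaging a gene's probes in the lists, and leaving out each array.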

Additional observations from a re-analysis of the deposited data

Results flagged for a closer look

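On Slc38a9 probe 159097, saline replicate 4 stood apart from the other saline mice, at 2.03 on the log2 scale against 2.44 for the next lowest. Its gap to that mouse was 0.717 of the range of the group, past Dixon's 95% critical value of 0.71 for 5 samples. It was the only such sample among the 22 groups of member probes that were checked, and chance alone gives about 1 in 20. Over the 17 alternatives the log2 difference of this probe lay between 0.11 (without ASO replicate 4) and 0.51 (without ASO replicate 2).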

How the results depend on the processing

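The log2 differences of Slc1a4 and Slc38a9 probe 119069 lay between 1.21 and 1.51 and between 0.90 and 1.31 over 17 alternatives. The count of called member probes, 2, rests on these 2 probes, which were chosen from this contrast, and is no support for them. It was 0 with no floor and 0 to 1 when each array was left out. The count over all probes, 23, was 41 with cyclic loess, 7 with no floor, 42 with eBayes with trend and robust, 73 with only probes above the median level, and 0 to 16 without 1 array. The cause of these shifts was not tested. The 4 other gene lists had 0 called genes in every alternative, and no probe of the member genes other than Slc1a4 and Slc38a9 was called in any.

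The sign turned for Slc7a5 with quantile normalization (-0.029), cyclic loess (-0.054) and no floor (-0.060). Leaving out 1 array gave -0.12 to 0.22 for Slc7a5, -0.054 to 0.22 for Slc7a2 and -0.50 to 0.065 for Slc38a2 probe 327089. With only probes above the median level, Slc7a5, Slc1a5 and Slc43a1 were too dim to be tested. No paired analysis was possible because the labels give no replicate numbers that the groups share.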
